A study of Mus musculus with 6 samples.

Results

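The Dlx and Msx homeobox genes were examined in newborn mouse parietal bone, a plate of the skull vault (calvaria). The 8 members, Dlx1, Dlx2, Dlx3, Dlx4, Dlx5, Dlx6, Msx1 and Msx2, were found by their symbols among the 44556 genes listed, and 7 of them were among the 15600 genes whose counts were high enough to test. Dlx4 was the member not tested. Bulk RNA-seq libraries were compared between OsxCre newborns (n = 3) and OsxCre;Stat3fl/fl littermates (n = 3), all of the C57BL/6 strain. Both groups carried the OsxCre transgene, in which regulatory sequence of Osx (Sp7) drives Cre recombinase mainly in osteoblast precursors, so an effect of the transgene itself is common to both. The groups were meant to differ in Stat3, both alleles of which carried loxP sites in OsxCre;Stat3fl/fl mice, so that the gene was to be deleted in Cre-expressing cells and kept in the other cells of the tissue. RNA is polyadenylated according to the labels and total according to the methods of the study.

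Dlx and Msx genes encode homeodomain transcription factors. In the mouse, Dlx genes lie as linked pairs that point towards each other and share enhancers between and around them, and the members of a pair are often expressed together. Dlx5 and Dlx6 act in the ventral branchial arches, the limb and the osteoblast lineage, where Dlx5 is known as an activator of Runx2 and Sp7. Dlx3 acts in epidermis, hair follicle, tooth, placenta and bone, and Dlx1 and Dlx2 act in forebrain GABA interneurons and in the dorsal branchial arches. Msx1 and Msx2 are targets of BMP signalling and mostly repress transcription, keep precursor cells of the skull vault and suture proliferating, and can bind the same DNA sites as DLX5, with which they compete. Loss of Msx2 leaves holes in the skull vault in mouse and human.

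The pairs were Dlx1 (GRCm38.p6, chr2:71528113-71533981) with Dlx2 (chr2:71543408-71546754), Dlx3 (chr11:95120117-95125296) with Dlx4 (chr11:95140447-95146294), and Dlx6 (chr6:6863334-6867970) with Dlx5 (chr6:6877801-6882068), with 9.43, 15.2 and 9.83 kb between the partners. Msx1 (chr5:37820491-37824585) and Msx2 (chr13:53466881-53472780) stood alone on their chromosomes. Dlx3 and Dlx4 lay on the chromosome of Stat3 (chr11:100886806-100939594), 5.76 and 5.74 Mb from it. Positions are those of RefSeq.

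The homeobox, the 180 bases that encode the homeodomain, was compared between members because reads from near-identical stretches could be assigned to the wrong gene. Identity over the homeobox ran from 54.4% between Dlx4 and Msx2 to 82.2% between Msx1 and Msx2, and was 73.9% between Dlx1 and Dlx2, 71.7% between Dlx3 and Dlx4 and 73.3% between Dlx5 and Dlx6. The longest run of bases shared exactly by the transcripts of any pair of members was between 10 and 26 bases, except for 44 bases between Dlx6 and Msx2.

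Promoter sequence was found in the RefSeq table (GRCm38.p6) for 4 of the 8 members, Dlx1, Dlx2, Msx1 and Msx2, and not for Dlx3, Dlx4, Dlx5 and Dlx6. The 250 bases before the transcription start are shown for Msx1 (chr5:37824586-37824835, minus strand) and Msx2 (chr13:53472781-53473030, minus strand). These members had the smallest difference in the likeness measure given below. Capitals mark the CCAAT box, the GC box GGGCGG and the homeodomain core site TAATTA, each searched on both strands.
Msx1: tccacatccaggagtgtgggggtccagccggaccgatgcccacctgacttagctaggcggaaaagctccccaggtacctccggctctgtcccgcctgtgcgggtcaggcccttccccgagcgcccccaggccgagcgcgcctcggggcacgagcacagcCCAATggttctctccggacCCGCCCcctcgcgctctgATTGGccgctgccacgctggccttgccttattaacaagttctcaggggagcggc
Msx2: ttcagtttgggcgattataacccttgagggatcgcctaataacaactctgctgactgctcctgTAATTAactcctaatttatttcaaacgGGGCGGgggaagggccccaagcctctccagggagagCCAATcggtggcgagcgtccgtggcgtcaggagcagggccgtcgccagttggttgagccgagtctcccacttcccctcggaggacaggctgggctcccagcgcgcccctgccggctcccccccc
Both held GGGCGG and CCAAT. In windows of 300 bases, which run from 250 before to 50 after the start, GGGCGG was in 4 of the 4 members and in 35.7% of the 32851 promoters of the table. CCAAT was in 3 of the 4, Dlx2, Msx1 and Msx2, and in 37.4% of all promoters. TAATTA was in Msx2 alone and in 5.29% of all. The other homeodomain site searched, TAATTG, was in none of the 4 and in 8.0% of all. The gamma-activated site bound by STAT factors, searched as TTC and GAA set 3 bases apart, was in none of the 4 windows and in 8.30% of all. Set 4 bases apart, it was in none of the 4 and in 6.95% of all. The STAT3 sites predicted by the study are in the Dlx5 promoter, for which no sequence was found, so these windows do not bear on them. The motifs did not overlap one another. The windows of the 4 members held 61.0% to 70.0% G and C, above the median of 52.7% over all promoters.

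The authors' counts on genes summed to between 9686843 and 12080044 in OsxCre and to between 8193651 and 8771037 in the libraries labelled OsxCre;Stat3fl/fl, so each of the latter was smaller. Levels are given as counts-per-million (CPM) after scaling by edgeR's TMM method, and 3 counts, taken as the smallest level a library can show, correspond to between 0.252 and 0.368 CPM. Such floors, and the counting interval given for Dlx4, cover counting error only. Stat3 itself had 150, 135 and 141 CPM in OsxCre libraries 1, 2 and 3, and 153, 155 and 155 CPM in the libraries labelled OsxCre;Stat3fl/fl (log2 fold change 0.12, standard error 0.07, adjusted p = 0.463, edgeR). The deletion was thus not seen in the count for the gene, which sums over its exons, and the genotypes are taken from the labels. The osteoblast markers summed to between 12500 and 16700 CPM in OsxCre and between 10900 and 13900 CPM in the other genotype, with all 6 detected in each library. Skeletal muscle markers summed to between 17600 and 19400 and between 20200 and 29400 CPM, which did not overlap. Col1a1 (means 13060 and 11860 CPM) made up most of the first sum, and Acta1 and Ckm most of the second. Taken singly, 2 of the 6 osteoblast markers were lower without overlap, where 12.2% of all genes tested were. Of the 6 muscle markers, 3 were higher without overlap, where 10.8% of all genes tested were. A figure legend of the study describes male newborns, whereas each of the 6 libraries held at least 7333 counts of Xist and 0 counts of the Y-linked Ddx3y.

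Compared per kilobase of annotated exon, Dlx5 was the most abundant member, with a median over the 6 libraries of 10.8 CPM per kb, followed by Msx1 (8.0), Dlx3 (4.34), Msx2 (2.82), Dlx6 (0.844), Dlx1 (0.651), Dlx2 (0.435) and Dlx4 (0.102). In OsxCre libraries, Dlx5 (10.7 to 15.8 CPM per kb) was apart from Msx1 (6.33 to 7.82), and Msx1 overlapped with Dlx3 (4.42 to 6.86). In libraries labelled OsxCre;Stat3fl/fl, Dlx5 (8.44 to 10.9) overlapped with Msx1 (8.17 to 8.75), while Dlx3 (3.39 to 4.26) stayed below Msx1. Msx2 (2.26 to 3.08 over all libraries) was below Dlx3 in every library, and Dlx6, Dlx1 and Dlx2 overlapped. Dlx4 lay below Dlx2 in each of the 6 libraries. The order over medians was the same per kilobase of coding sequence, except that Dlx1 (4.57) then stood above Dlx6 (2.24).

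**Figure D1:**
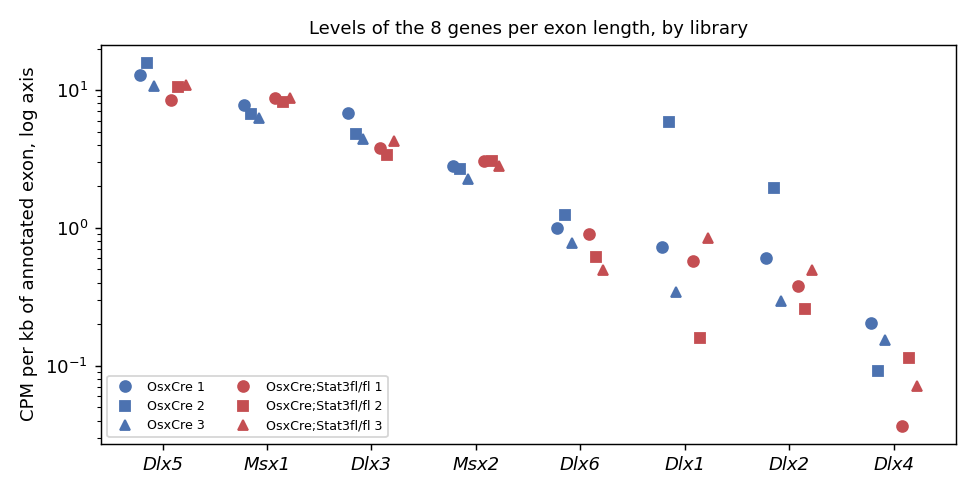
Levels of the 8 genes in CPM per kilobase of annotated exon (log axis), 1 point per library, OsxCre in blue and OsxCre;Stat3fl/fl in red, with genes ordered by their median. Dlx5 (median 10.8) and Msx1 (8.0) were at the top and Dlx4 (0.102) at the bottom, and for Dlx1 and Dlx2 OsxCre library 2 stood above the other 5.

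The question put to each member was whether its level differed between the genotypes beyond the spread of the libraries. None of the 7 members tested passed an adjusted p under 0.05 in edgeR's quasi-likelihood test (two-sided, Benjamini-Hochberg over 15600 genes), where 0.686% of all genes were called lower and 1.01% higher. DESeq2 and limma-voom also called 0 members. At an unadjusted p under 0.05 edgeR gave 2 members, Dlx3 and Dlx5, both lower, against a background of 8.33% of all genes lower. DESeq2 gave 0 members, and limma-voom gave neither of these but Msx1, which was higher (log2 fold change 0.30, unadjusted p = 0.0421). Without any scaling of the libraries, which moved the median of all genes to -0.38, Dlx3 (-0.85), Dlx5 (-0.75) and Dlx6 (-0.94) passed the adjusted threshold. The 5 Dlx members tested had negative log2 fold changes, as did 50.7% of all genes tested. Both Msx members had positive ones, which were negative without scaling. The median over the 7 was -0.49 beside -0.0037 over all genes, with OsxCre library 2 included. Without that library, Dlx1, Dlx2, Dlx3, Dlx5 and Dlx6 were at -0.0013, -0.23, -0.57, -0.24 and -0.40. Msx1 and Msx2 were then at 0.27 and 0.23. The libraries of the genotypes did not overlap for 1 member on the lower side, Dlx3, where 12.2% of all genes did so, and for 1 on the higher side, Msx1, where 10.8% did. With 3 libraries against 3, the exact permutation test of CPM values used for single genes cannot go below p = 0.1, so it could not pass 0.05 for any of them. In bulk tissue, fewer cells of a type and less RNA per cell cannot be told apart, and this holds for each member.

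**Figure D2:**
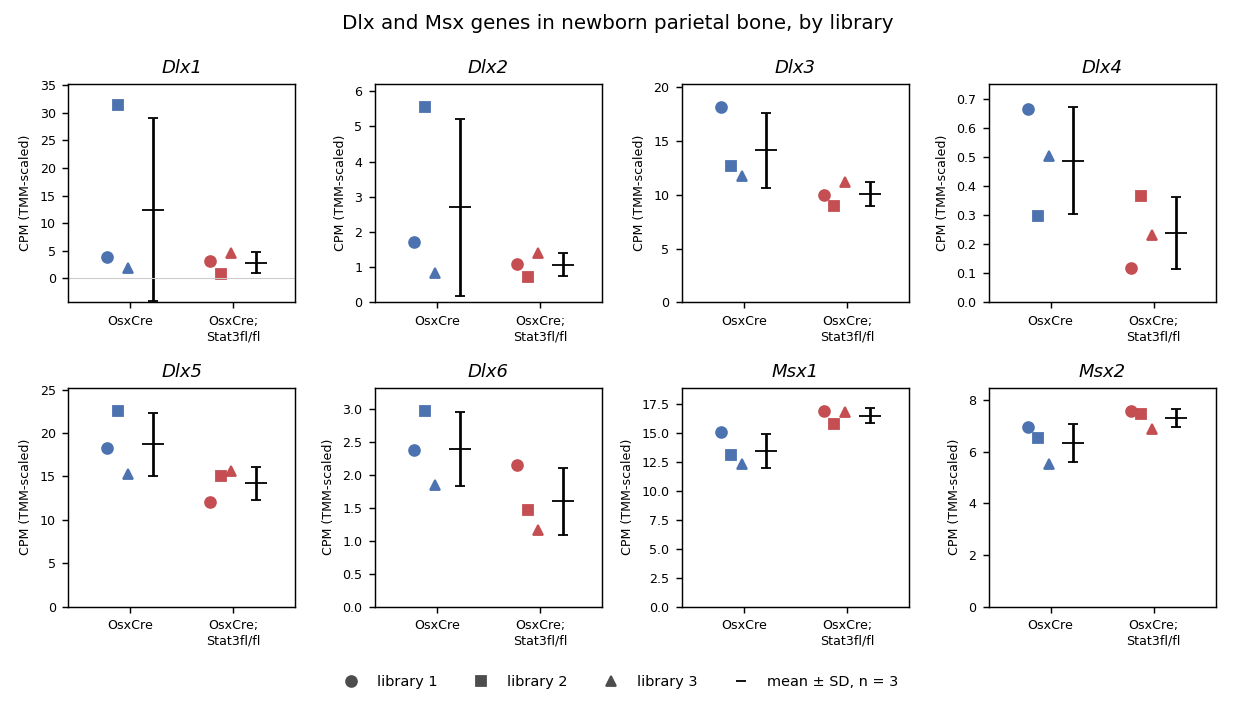
CPM of each member by library, with circles, squares and triangles for libraries 1, 2 and 3 of each genotype and black bars for the mean ± SD (n = 3). Libraries did not overlap for Dlx3 (11.7 to 18.1 against 8.95 to 11.2) and Msx1 (12.3 to 15.1 against 15.8 to 16.9), and the wide bars of Dlx1 and Dlx2 came from OsxCre library 2.

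Dlx5 and Dlx6, the pair with the known role in osteoblasts, summed to 21.1 ± 4.20 CPM (mean ± SD, n = 3) in OsxCre and 15.8 ± 1.43 CPM in libraries labelled OsxCre;Stat3fl/fl, a ratio of 0.750. Dlx5 gave between 84.7% and 93.0% of the counts of the pair. Dlx5 had 18.3, 22.5 and 15.3 CPM (192, 227 and 182 counts) in OsxCre libraries 1, 2 and 3, and 12, 15.1 and 15.6 CPM (100, 123 and 133 counts) in libraries labelled OsxCre;Stat3fl/fl. Its lowest OsxCre library lay between the 2 higher libraries of the other genotype, so the groups overlapped. The log2 fold change of Dlx5 was -0.39 (standard error 0.17, 95% interval -0.78 to -0.0026), with p = 0.0488 before and 0.304 after adjustment in edgeR, and the exact permutation test gave p = 0.2. Without OsxCre library 2 the value for Dlx5 was -0.24 (unadjusted p = 0.199, adjusted p = 0.619, edgeR), and over the 6 fits that each left out 1 library it ran from -0.52 to -0.24.

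Dlx6 was much lower, with 2.38, 2.97 and 1.85 CPM (25, 30 and 22 counts) in OsxCre and 2.16, 1.47 and 1.17 CPM (18, 12 and 10 counts) in libraries labelled OsxCre;Stat3fl/fl. Library 1 of the latter group lay inside the OsxCre range. The log2 fold change was -0.58 (standard error 0.34, 95% interval -1.35 to 0.20, adjusted p = 0.452, edgeR), so that the interval held both 0 and values below -1. Dlx6 lies wholly, 100% of its span, inside the antisense gene Dlx6os1, a long non-coding RNA gene whose product is known as Evf2. By its RefSeq position, Dlx6os1 ends between Dlx6 and Dlx5 and overlaps Dlx5 by 0 bases. Since the library kit does not mark strand, reads of Dlx6 and Dlx6os1 cannot be told apart where their exons overlap. Dlx6os1 had 3.05, 6.54 and 3.02 CPM in OsxCre and 3.0, 4.05 and 2.46 CPM in the other genotype (log2 fold change -0.40, standard error 0.36, adjusted p = 0.645, edgeR). The count of Dlx6 relative to Dlx5 was 0.128 ± 0.00603 in OsxCre and 0.118 ± 0.0552 in libraries labelled OsxCre;Stat3fl/fl, which overlapped.

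Dlx3 had 18.1, 12.6 and 11.7 CPM (190, 127 and 139 counts) in OsxCre libraries 1, 2 and 3, and 9.97, 8.95 and 11.2 CPM (83, 73 and 96 counts) in the other genotype. All OsxCre libraries were above all libraries labelled OsxCre;Stat3fl/fl, by a margin that was small between OsxCre library 3 and library 3 of the other group. The log2 fold change was -0.49 (standard error 0.20, 95% interval -0.93 to -0.047), with p = 0.0336 before and 0.256 after adjustment in edgeR, and the exact permutation test gave p = 0.1, the smallest it allows. Without OsxCre library 1, the highest, the value was -0.26, and without OsxCre library 2 it was -0.57. Since Dlx3 is also an epidermal gene, keratinocyte markers were read beside it. The 6 markers summed to between 4.78 and 7.61 CPM in OsxCre and between 4.66 and 8.65 CPM in the other genotype, and of the basal markers Krt5 had 0 to 24 and Krt14 0 to 14 counts per library. The library lowest in Dlx3 was also the lowest in this sum, whereas the library with the highest sum was the second lowest in Dlx3. The part of epidermal cells in the Dlx3 level was not tested.

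Dlx4, the partner of Dlx3, was close to the floor in all libraries, with 7, 3 and 6 counts in OsxCre and 1, 3 and 2 counts in libraries labelled OsxCre;Stat3fl/fl. Over the group this made 16 against 6 counts, a ratio of rates of 0.487 with an exact 95% interval from 0.156 to 1.31, and a difference was not detectable at this depth. Its antisense partner Dlx4os, listed under A730090H04Rik, covers 21.2% of the Dlx4 span and had 0 to 9 counts per library. Dlx3 thus gave between 95.9% and 98.8% of the counts of the pair, which summed to 14.6 ± 3.61 and 10.3 ± 1.09 CPM, a ratio of 0.705.

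Dlx1 and Dlx2 were set by 1 library. Dlx1 had 3.90, 31.5 and 1.85 CPM (41, 318 and 22 counts) in OsxCre libraries 1, 2 and 3, and 3.12, 0.858 and 4.56 CPM (26, 7 and 39 counts) in libraries labelled OsxCre;Stat3fl/fl. OsxCre library 2 was 6.91 times the next library, and the other 5 libraries were intermixed. The log2 fold change of Dlx1 was -2.11 (standard error 1.35, 95% interval -5.68 to 1.47, adjusted p = 0.531, edgeR) with all libraries and -0.0013 (adjusted p = 0.999) without that library. Dlx2 followed, with 1.71, 5.55 and 0.839 CPM (18, 56 and 10 counts) in OsxCre and 1.08, 0.736 and 1.4 CPM (9, 6 and 12 counts) in the other genotype. Its log2 fold change was -1.30 (standard error 0.72, 95% interval -3.00 to 0.40, adjusted p = 0.432, edgeR), and -0.23 without OsxCre library 2. The pair made up 49.1% of all Dlx counts in that library and between 5.80% and 17.5% in the other 5. Dlx1as, an antisense gene, overlaps 57.0% of the Dlx1 span, introns included. How reads in any shared exon were assigned is not known. Dlx1as had 80 counts in OsxCre library 2 and between 4 and 10 in the others.

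Some genes that mark forebrain GABA neurons were highest in the same library, 4 of the 6 on the list. Gad1, which makes GABA, had 3.05, 23.4 and 1.26 CPM in OsxCre and 2.76, 1.84 and 1.75 CPM in the other genotype. Slc32a1, the vesicular GABA transporter, had 0.381, 3.57 and 0.168 against 1.08, 0.245 and 1.17 CPM. The other 2 genes were not, since Lhx6 was lowest there (7.34 CPM, with 9.32 to 12.5 CPM in the other libraries) and Gad2 had 0.595 CPM there and 0.6 CPM in library 1 labelled OsxCre;Stat3fl/fl. The 6 genes of the list summed to 48.5 CPM in OsxCre library 2 and to between 15.5 and 20.4 CPM in the other libraries. The general neuron list was high in more libraries, with 88.4, 404 and 80.4 CPM in OsxCre and 314, 30.9 and 208 CPM in libraries labelled OsxCre;Stat3fl/fl. In library 1 of the latter group, Tubb3, the neuronal tubulin, was at 115 CPM, Dlx1 at 3.12 CPM and Gad1 at 2.76 CPM. The part of neural cells in the Dlx1 and Dlx2 levels was not tested. Without OsxCre library 2, the sum of the 6 Dlx genes in libraries labelled OsxCre;Stat3fl/fl was 0.780 of that in OsxCre, compared with 0.591 with it, and the ratio was 0.945 for Dlx1 with Dlx2, 0.837 for Dlx5 with Dlx6 and 0.666 for Dlx3 with Dlx4.

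**Figure D3:**
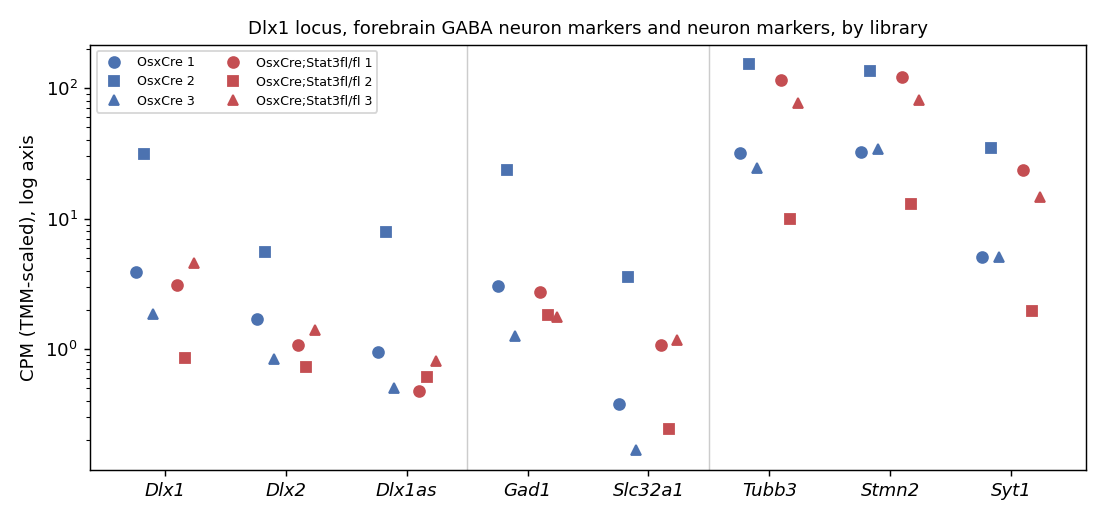
CPM (log axis) by library of Dlx1, Dlx2 and Dlx1as on the left, of Gad1 and Slc32a1, chosen from 6 forebrain GABA neuron markers, in the middle and of general neuron markers on the right. OsxCre library 2 (blue squares) stood above the other 5 on the left and for these markers, though not for Lhx6 and Gad2, which are not plotted, whereas on the right libraries 1 and 3 labelled OsxCre;Stat3fl/fl were high too (Tubb3 153, 115 and 76.5 CPM in these 3 libraries).

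Msx1 and Msx2 lay on the other side of 0 with scaled libraries, and below 0 without scaling. Msx1 had 15.1, 13.1 and 12.3 CPM (159, 132 and 146 counts) in OsxCre and 16.9, 15.8 and 16.8 CPM (141, 129 and 144 counts) in libraries labelled OsxCre;Stat3fl/fl, with no overlap. Its log2 fold change was 0.29 (standard error 0.13, 95% interval -0.0019 to 0.59), with p = 0.0512 before and 0.312 after adjustment in edgeR, and the exact permutation test gave p = 0.1, the smallest it allows. Msx2 had 6.95, 6.54 and 5.54 CPM in OsxCre and 7.57, 7.48 and 6.90 CPM in the other genotype, where the lowest library was just below the highest OsxCre library. Its log2 fold change was 0.21 (standard error 0.18, 95% interval -0.20 to 0.61, adjusted p = 0.633, edgeR). Both values rest on the scaling of the libraries, since the raw counts were alike (159, 132 and 146 against 141, 129 and 144 for Msx1, and 73, 66 and 66 against 63, 61 and 59 for Msx2) and the libraries labelled OsxCre;Stat3fl/fl were smaller. Without any scaling they were -0.08 for Msx1 and -0.16 for Msx2, above the median of all genes (-0.38). The pair summed to 19.8 ± 2.15 and 23.8 ± 0.610 CPM, a ratio of 1.2.

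**Figure D4:**
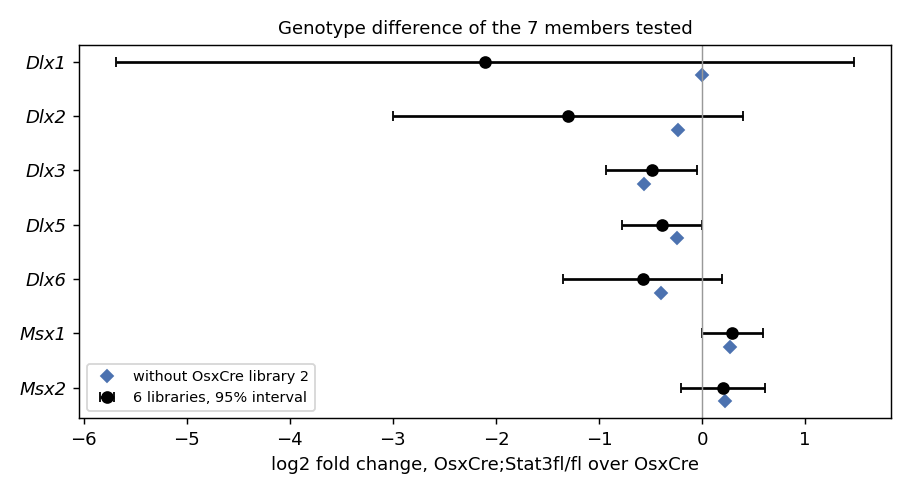
Log2 fold change of the 7 members tested, OsxCre;Stat3fl/fl over OsxCre, with the 95% interval from edgeR (black) and the value without OsxCre library 2 (blue diamonds). Dlx members lay below 0 and Msx members above it (below it without scaling), the intervals of Dlx3 and Dlx5 ended just below 0, and Dlx1 moved from -2.11 to -0.0013 without that library.

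Because DLX5 and the MSX proteins can compete for DNA sites, the counts of Dlx genes were also set against those of Msx genes of the same library, a ratio that no scaling can change. Dlx5 relative to Msx1 was 1.21, 1.72 and 1.25 in OsxCre libraries 1, 2 and 3, and 0.709, 0.953 and 0.924 in libraries labelled OsxCre;Stat3fl/fl. Each OsxCre library thus held more Dlx5 than Msx1 counts and each library of the other genotype fewer. These counts are not scaled for exon length, which is 1423 bases for Dlx5 and 1935 for Msx1. Per kilobase of exon, the libraries labelled OsxCre;Stat3fl/fl had 8.44, 10.6 and 10.9 CPM for Dlx5 and 8.75, 8.17 and 8.7 CPM for Msx1. Dlx5 was thus not below Msx1 in all of them. Dlx3 relative to Msx1 was 1.19, 0.962 and 0.952 against 0.589, 0.566 and 0.667, and Dlx6 relative to Msx1 was 0.178 ± 0.0425 against 0.0967 ± 0.0293, neither with overlap. Set against Msx2, the genotypes did not overlap either, with 2.94 ± 0.435 against 1.95 ± 0.338 for Dlx5, 2.21 ± 0.351 against 1.38 ± 0.222 for Dlx3 and 0.377 ± 0.0675 against 0.217 ± 0.0608 for Dlx6. These separations are common, since 37.0% of all genes tested were lower without overlap relative to Msx1 and 27.9% relative to Msx2, and no test of the ratios was made. Msx2 relative to Msx1 was 0.470 ± 0.0259 and 0.443 ± 0.0317, and Dlx3 relative to Dlx5 was 0.771 ± 0.215 and 0.715 ± 0.118, both with overlap.

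**Figure D5:**
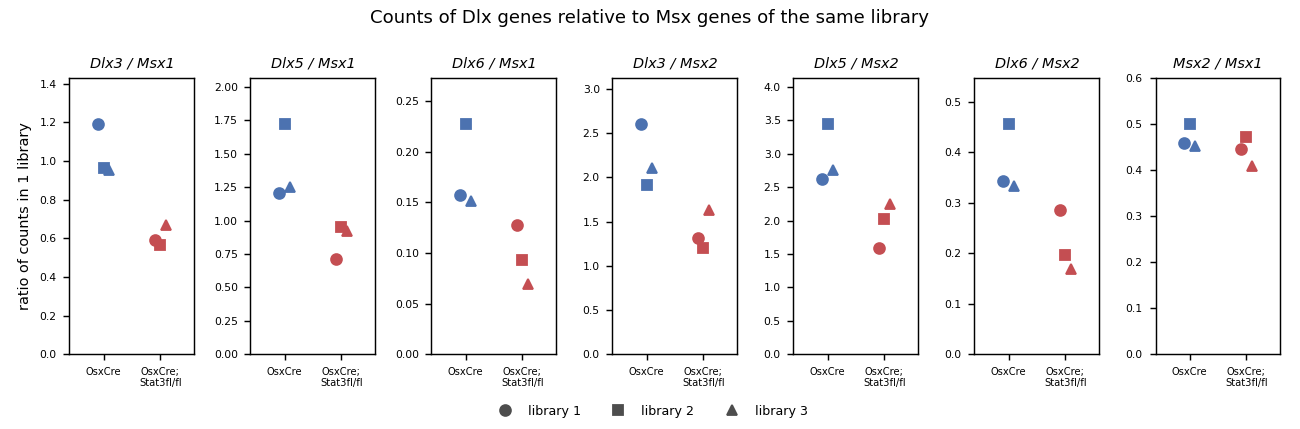
Counts of Dlx3, Dlx5 and Dlx6 divided by the counts of Msx1 or Msx2 in the same library, and of Msx2 divided by Msx1, 1 point per library, with each vertical axis starting at 0. The genotypes separate in the 6 Dlx panels (Dlx5 to Msx1, 1.21 to 1.72 against 0.709 to 0.953) and overlap for Msx2 to Msx1 (0.452 to 0.5 against 0.410 to 0.473).

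Likeness across the 6 libraries was described by the root mean square difference of log2(CPM + 1) deviations from each gene's mean, with no test. The most alike members were Msx1 and Msx2 (0.0826). The linked partners were less alike, with 0.215 for Dlx3 and Dlx4, 0.268 for Dlx5 and Dlx6 and 0.675 for Dlx1 and Dlx2, the last of which carry the jump in OsxCre library 2. The pseudocount of 1 damps this measure for genes of low CPM, such as Dlx4. The measure is not scaled to each gene's counting error, which is larger for Dlx2, Dlx4 and Dlx6 than for the Msx genes. It thus does not rank the pairs by how closely they are expressed together. Among 12174 genes with a mean of at least 5 CPM, the closest to Dlx5 were Thap1 (0.0736), Zfp933 (0.0803) and Txlnb (0.0870), to Msx1 Capg (0.0255), Rassf8 (0.0296) and Cd9 (0.0361), and to Msx2 Suv39h1 (0.0269), Gm15501 (0.0328) and Eapp (0.0348).

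Genes of BMP signalling, which switches on Msx genes and Dlx5, were read from the same fit. Of the 18 genes tested, 1 rose and 0 fell, where 1.01% of all genes were called higher and 0.686% lower. The median log2 fold change was 0.0184, beside -0.0037 over all genes. The one that rose was Id1, a direct BMP target whose product blocks basic helix-loop-helix factors, from 66.3 ± 7.13 to 98.7 ± 9.53 CPM (log2 fold change 0.57, standard error 0.10, adjusted p = 0.0339, edgeR). Id1 did not pass in any of the 6 fits that left out 1 library (adjusted p = 0.0597 to 0.102). The next by p were the receptor Bmpr1b (log2 fold change -0.67, adjusted p = 0.103) and the BMP antagonist Grem1 (1.15, adjusted p = 0.131, with 8 to 22 counts per library).

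Of the 20 regulators of the skull vault and sutures, 19 were tested, with a median of -0.0053 beside -0.0037 over all genes. Among them 1 fell and 0 rose, where 0.686% of all genes were called lower and 1.01% higher. The call did not hold in any of the 6 fits that left out 1 library. Gli1, the Hedgehog target that marks suture stem cells, was at 0.39 on the log2 scale (adjusted p = 0.102), and Erf, a repressor whose loss closes sutures early, at 0.31 (adjusted p = 0.240). Fgfr1 was the one not tested, with 0 to 3 counts in every library.

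Of the 11 protein partners of DLX and MSX factors, 0 passed the adjusted threshold. At an unadjusted p under 0.05, 1 of the 11 was higher, as were 1230 of all 15600 genes tested. It was the Groucho-type corepressor Tle1, with a log2 fold change of 0.37 (adjusted p = 0.154, edgeR). Tle3 and Tle4, of the same family, were at 0.10 and 0.33, and the median over the list was 0.0691.

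The 9 osteogenic genes placed downstream of Dlx and Msx factors had a median of -0.19, beside -0.0037 over all genes. Where 0.686% of all genes were called lower and 1.01% higher, 0 of the 9 rose and 2 fell. These were Ibsp, which encodes bone sialoprotein, from 1003 ± 65.3 to 633.5 ± 27.2 CPM (log2 fold change -0.66, standard error 0.10, adjusted p = 0.0145, edgeR), and Alpl, alkaline phosphatase, from 282.7 ± 37.5 to 193.9 ± 5.05 CPM (log2 fold change -0.54, standard error 0.10, adjusted p = 0.0368). Leaving out 1 library kept Ibsp in 2 of 6 fits (adjusted p = 0.0195 to 0.0805) and Alpl in 1 of 6 (adjusted p = 0.0242 to 0.155). Sp7, whose promoter also drives the Cre transgene of both genotypes, was at -0.32 on the log2 scale (adjusted p = 0.373). The 9 genes ran from -0.66 to 0.17 on the log2 scale, a range that also holds 0. Dlx5 (-0.39) and Dlx3 (-0.49) lay within it, which does not tie them to these genes. Of the 9 branchial arch targets of Dlx5 and Dlx6, only Lhx6 (log2 fold change 0.34, adjusted p = 0.397) and Gsc (-0.51, adjusted p = 0.823) were tested, and 0 passed.

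The nearest tested genes on both sides of each member locus were compared as well, and 0 of these 10 genes passed the adjusted threshold. At the Dlx loci, Metap1d and Itga6, Itga3 and Kat7, and Shfm1 and Acn9 had log2 fold changes of 0.05, 0.14, 0.30, -0.12, -0.09 and -0.41. Beside Msx2, Sptlc1 and Sfxn1 had 0.06 and -0.06. Cytl1, a gene of cartilage 80.7 kb from Msx1, had the widest value, from 8.18 to 14.6 CPM (log2 fold change 0.83, standard error 0.27, adjusted p = 0.164, edgeR), and Stx18 on the other side of Msx1 had 0.33 (adjusted p = 0.359). Chondrocyte markers summed to between 1790 and 3070 CPM in OsxCre and between 2740 and 3490 CPM in the other genotype.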

How the data were processed

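Parietal bone RNA of 3 OsxCre and 3 OsxCre;Stat3fl/fl newborns was sequenced by the study. The authors deposited whole-number counts per gene for 44556 symbols in each library, without normalization. The counter and its strand setting are not given in the sources used here. The submitters' processing notes name HISAT2 and GRCm38, whereas the methods of the study name TopHat, mm9, Cufflinks FPKM values and Cuffdiff, which were not used here.

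Genotypes were compared in edgeR 4.0.16 (filterByExpr, minimum count 10 and minimum total count 15; TMM; quasi-likelihood test) under R 4.3.3, and in alternatives by DESeq2 1.42.0 and limma 3.58.1. Permutation tests used scipy 1.17.1 in Python 3.11.15, and matplotlib 3.10.9 made the plots. Standard errors follow from the log2 fold change and its F statistic. The fit was tested on simulated counts. The depth of 8193651 to 12080044 counts sets the floor of 3 counts. No 2 libraries of a genotype were duplicates, with a chi-square of 7.51 to 15.6 per degree of freedom. The methods give 3 mice per genotype, which were taken as the replicates.

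The members, the gene lists and the rule for named genes (members, antisense partners, called list genes and the 3 with the smallest p per list, nearest tested neighbours, closest patterns, Stat3, Xist, Ddx3y) were chosen with earlier results of these data known. Other genes were named after their values were seen. A few list genes enter the counts but their values are not reported here. Positions were matched for 97.1% of the tested genes in the RefSeq table of GRCm38.p6, and exon lengths came from GENCODE M1 (NCBIM37). The 15 alternatives were other scalings, filters and tests, a replicate block and leaving out each library.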

Additional observations from a re-analysis of the deposited data

How the results depend on the processing

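Of the 118 log2 fold changes of members and Stat3 under alternatives, 112 kept their direction and their side of the adjusted threshold of 0.05. None of these genes passed with the main settings, and a change of size alone was not counted. Dlx1 (-2.11 to -0.0013) and Dlx2 (-1.30 to -0.23) without OsxCre library 2 are thus among the 112. The exceptions in direction or side all came without scaling, where libraries are compared by raw counts although those labelled OsxCre;Stat3fl/fl were smaller, and the median of all genes was -0.38. There Msx1 (-0.078), Msx2 (-0.16) and Stat3 (-0.26) turned negative, and Dlx3 (-0.85, adjusted p = 0.0112), Dlx5 (-0.75, adjusted p = 0.00906) and Dlx6 (-0.94, adjusted p = 0.0486) passed, which made 3 members called. With at least 10 counts required in every library, 5 members were tested and 3 were negative. Over the fits that left out 1 library, Dlx6 ran from -0.85 to -0.39, Msx1 from 0.23 to 0.39 and Msx2 from 0.12 to 0.28. The genes called lower over the whole table, 107, became 190 with library totals alone, 5803 without scaling, 335 without a filter, 231 with DESeq2, 62 with limma-voom, 21 with the replicate block and 13 to 88 when 1 library was left out. The genes called higher, 157, became 381 without a filter, 307 with DESeq2, 40 with the replicate block and 28 to 111 with 1 library left out. At an unadjusted p under 0.05, 7694 genes were lower and 177 higher without scaling, compared with 1299 and 1230. The 4 pathway genes called became 28 without scaling, 1 with limma-voom, 0 with the replicate block and 0 to 2 with 1 library left out. The cause of the shifts under scaled libraries was not tested. Under the replicate block Dlx3 (-0.47, unadjusted p = 0.0541, adjusted p = 0.378, edgeR) and Dlx5 (-0.38, unadjusted p = 0.0632, adjusted p = 0.403) no longer had an unadjusted p under 0.05, and no member passed the adjusted threshold. No tie between same-numbered libraries beyond the number was known. Their deviations from the group means correlated at -0.10, -0.53 and -0.069, which does not settle whether they were paired. The depth limits Dlx4 and Dlx6, whose counts were at most 7 and 30 per library. Per coding length, the OsxCre means became 16.2 for Dlx1 and 21.5 for Dlx5 CPM per kb.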

Other observations

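The genes that were at least 3-fold higher in 1 library than in every other library were counted among the 15600 genes tested, after the values of Dlx1 had been seen. OsxCre library 2 had 16 such genes, and the other 5 libraries had between 0 and 6. Ordered by the fold over the next library, they began with Mpped1 (12.9-fold), Gad1 (7.68-fold), Cdhr1 (7.22-fold), Lmo3 (7.05-fold) and Dlx1 (6.91-fold). Dlx2 (3.24-fold) stood at rank 12 and Slc32a1 (3.05-fold) at rank 15. Slc17a7, a glutamate transporter of cortical excitatory neurons, was among them too (4.30-fold). Counts of Dlx1 relative to Gad1 were 1.28, 1.35 and 1.47 in OsxCre libraries 1, 2 and 3, and 1.13, 0.467 and 2.60 in libraries labelled OsxCre;Stat3fl/fl, the latter from 7 to 39 counts of Dlx1.

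Some genes that skeletal tissue is known to express were listed with very low counts in every library, among them Fgfr1 (0 to 3 counts) and the cartilage gene Hapln1 (2 to 7 counts), and the neuronal gene Map2 had 1 to 3 counts where Tubb3 reached 1543. Why the counts for these symbols were low was not tested.

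Myh3, the embryonic myosin of skeletal muscle, rose from 341.6 ± 42.0 to 1122 ± 387 CPM in libraries labelled OsxCre;Stat3fl/fl (log2 fold change 1.71, standard error 0.25, adjusted p = 0.0298, edgeR).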
